A study of Caenorhabditis elegans with 12 samples.

Results

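The pals genes are an expanded gene family of Caenorhabditis elegans. They were taken as every row of the count table whose gene symbol is pals followed by a number, which gave 38 of the 46904 gene IDs. Of these, 34 had enough reads to be tested among 16526 genes, and pals-10, pals-13, pals-21 and pals-40 did not. The 38 genes lay on chromosomes I (15 genes), III (14 genes), IV (2 genes) and V (7 genes) of WBcel235, and 33 of them stood in runs of neighbours no more than 50 kb apart.

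PALS proteins share a divergent protein signature named after the human gene ALS2CR12, and most have no known biochemical activity. Many pals genes belong to the intracellular pathogen response, a set of genes that the worm induces on infection of its intestine by microsporidia or the Orsay virus and on some kinds of proteotoxic stress. Some members control that response. PALS-22 represses it and its neighbour PALS-25 activates it, while PALS-17 represses it and PALS-20 and PALS-16 activate it. Expression of pals-5 is widely used as its reporter.

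The worms came in 2 genotypes that the labels call wt and glh1, each grown as 3 cultures. GLH-1 is a germline DEAD-box helicase of the Vasa family found in P granules, and the labels do not give the glh-1 allele. Each lysate was split into total RNA and polysomal RNA, the RNA that sedimented with several ribosomes on a sucrose gradient, which made 12 libraries in 4 groups of 3. No treatment or infection is named, and strain background and genotype cannot be told apart. The worms had grown for about 40 h at 20 °C to young adults, per the growth protocol, although the tissue label names embryos. A list of 10 zygotic embryo genes summed to 1.59 to 4.04 CPM (library-size-scaled counts, with TMM factors) in the 12 libraries, and 10 germline genes summed to 654 to 1699 CPM.

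Library totals were 34520267 to 49672537 estimated counts, and pals genes took 0.00320 to 0.0154% of them. Ribosomal RNA took 28.8 to 40.4% in wt total and 4.89 to 9.51% in wt polysomal RNA, so the wt fractions differed in it. In glh1 it took 13.5 to 27.9% in total and 3.07 to 45.7% in polysomal RNA. Its part in the fraction differences was not tested. The glh-1 gene itself stood at 305 to 424 CPM in wt total RNA and 532 to 586 CPM in glh1 total RNA, which does not check the label, since the allele is not known. Libraries of wt culture 1 stood apart from the other wt libraries: act-5, an intestinal actin, was at 52.8 CPM in its total RNA against 366 and 304 CPM in cultures 2 and 3. The intestinal gene cpr-1 followed act-5 there, but others did not. In the same libraries spp-1 was at 288 CPM against 217 and 174 CPM, and elt-2 at 14.1 CPM against 16.9 and 15.4 CPM. Polysomal library 3 of glh1 stood apart from the other glh1 polysomal libraries. It held 17108 CPM summed over 9 intestinal markers, against 7364 and 8609 CPM in libraries 1 and 2. The largest shares of that sum were asp-1 at 9531 CPM and cpr-1 at 3419 CPM, and the markers did not all go that way. In library 3 elt-2 was at 12.5 CPM, against 27.9 and 22.6 CPM in libraries 1 and 2. There ges-1, at 23.9 CPM, was also below both. In whole-worm RNA, fewer cells of a type and less RNA per cell cannot be told apart.

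The family was expressed at a low level in these worms. Over the 6 total RNA libraries, the mean level of the 34 tested members had a median of 2.68 CPM and ran from 0.217 to 13.2 CPM, where the median over all tested genes was 7.65 CPM. The summed level of the 38 genes was 131, 104 and 129 CPM in wt total RNA and 114.7, 124 and 125 CPM in glh1 total RNA, so the genotypes overlapped. In polysomal RNA it was 92.1, 65.7 and 56.3 CPM in wt and 62.0, 65.5 and 41.8 CPM in glh1. Every polysomal library was below every total RNA library in this sum.

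Per kilobase of merged exons, the order in total RNA was led by pals-24 at 9.86 CPM per kb, pals-17 at 9.49 and pals-23 at 8.32. Next came pals-31 at 5.97 and pals-34 at 4.98 CPM per kb. The regulators pals-22 and pals-25 had 3.31 and 3.14 CPM per kb, pals-16 had 1.61, pals-5 had 0.483 and pals-20 had 0.219. The repressor pals-17 was thus among the most abundant members and its partner in regulation pals-20 among the least. In single libraries of total RNA, pals-24 ran from 8.10 to 13.2, pals-17 from 8.60 to 10.1 and pals-23 from 4.93 to 11.6 CPM per kb, so these 3 overlapped. The 4 untested members had 0 to 10 counts in any library.

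Many pals RNAs were lower in polysomal than in total RNA in both genotypes. In wt, 14 of the 34 tested members fell and 1 rose, 41.2% and 2.94%, where 19.8% of all tested genes fell and 20.1% rose. In glh1, 18 fell and 0 rose, 52.9% and 0%, where 19.1% of all tested genes fell and 23.6% rose. The median log2 fold change, polysomal against total, was -0.92 over the members in wt and -1.34 in glh1, and 0.06 and 0.13 over all tested genes. The 3 polysomal libraries lay wholly below the 3 total RNA libraries for 14 members in wt (41.2%; 24.2% of all tested genes) and 27 members in glh1 (79.4%; 29.3%). These values are relative to the other RNAs of each library, because CPM fixes the total, and members were called at an adjusted p under 0.05 in edgeR's quasi-likelihood test with Benjamini-Hochberg adjustment over all genes tested.

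**Figure D1:**
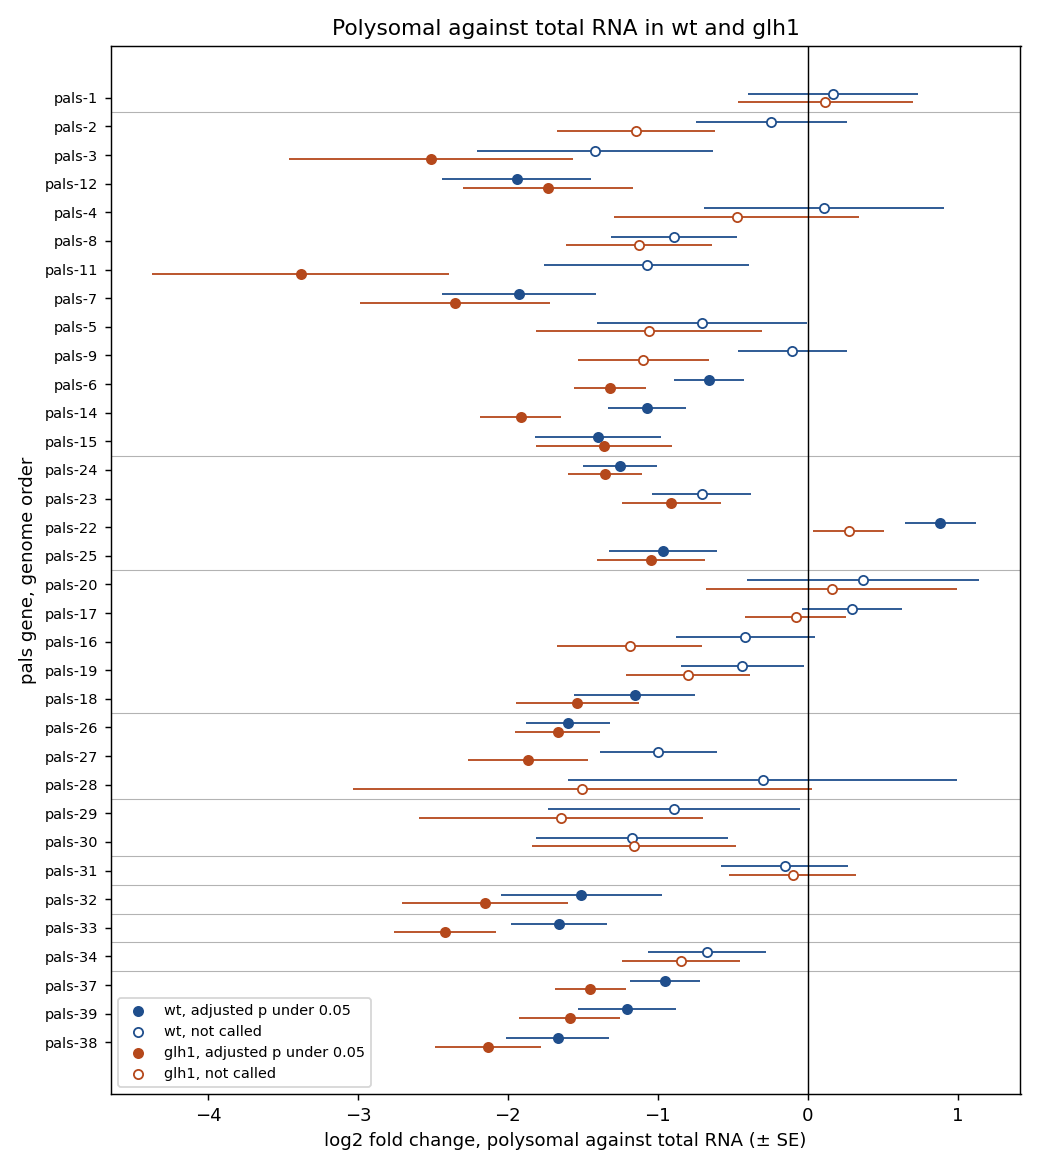
Log2 fold change of polysomal against total RNA for the 34 tested pals genes in genome order, with SE, from 3 libraries a group in wt (blue) and glh1 (orange); filled points passed an adjusted p of 0.05, and grey lines part the runs of neighbouring genes. Most points lie left of 0 in both genotypes, and pals-22 in wt is the filled point right of 0.

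The antagonistic neighbours pals-22 and pals-25 went opposite ways in wt. They lie end to end on the plus strand of chromosome III, pals-22 (WBGene00016216) at III:132418-134401 and pals-25 (WBGene00020540) at III:134494-137975. In wt, pals-22 stood at 2.52, 2.38 and 2.39 CPM in total RNA and 5.49, 4.47 and 3.51 CPM in polysomal RNA. The groups did not overlap, and its log2 fold change was 0.89 ± 0.24 (SE; adjusted p = 0.0112). In glh1 it stood at 3.54, 3.65 and 3.28 CPM in total and 5.05, 4.28 and 3.28 CPM in polysomal RNA, which overlapped at culture 3 (0.27 ± 0.24, adjusted p = 0.368). The difference between the genotypes in this ratio was -0.61 ± 0.34 with an unadjusted p of 0.0919 and an adjusted p of 1.

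The activator pals-25 was at 3.52, 3.1 and 2.66 CPM in wt total RNA and 2.24, 1.29 and 1.17 CPM in wt polysomal RNA. Its groups did not overlap, and it fell by 0.97 ± 0.36 (adjusted p = 0.0479). In glh1 it was at 3.90, 3.57 and 3.49 CPM in total and 1.97, 2.45 and 0.839 CPM in polysomal RNA, again apart, and fell by 1.05 ± 0.36 (adjusted p = 0.0328). Both calls of pals-25 were close to the threshold. The wt call was lost without any 1 of wt total libraries 1, 2 and 3 and polysomal libraries 2 and 3, with adjusted p from 0.0669 to 0.160, and with no filter on low counts (0.0571). The glh1 call was lost without total library 1 or 2 or polysomal library 3, with adjusted p from 0.0625 to 0.0716.

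Set against each other within a library, pals-22 had more estimated counts relative to pals-25 in polysomal than in total RNA. The ratio of pals-22 to pals-25 was 0.715, 0.769 and 0.898 in wt total RNA and 0.907, 1.02 and 0.939 in glh1 total RNA. In polysomal RNA it was 2.45, 3.45 and 3.00 in wt and 2.56, 1.74 and 3.91 in glh1. All 6 polysomal libraries lay above all 6 total RNA libraries. This ratio was chosen after the values were seen and is given with no test.

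Among the regulators of the run at III:1376945-1406263, none passed the test in either genotype. The repressor pals-17 (WBGene00022346) held 7.49, 7.80 and 8.45 CPM in wt total RNA and 11.9, 9.24 and 8.00 CPM in wt polysomal RNA, with overlapping groups (0.30 ± 0.34, adjusted p = 0.508). The glh1 libraries held 8.69, 8.82 and 8.32 CPM in total and 11.2, 9.72 and 3.39 CPM in polysomal RNA (-0.08 ± 0.34, adjusted p = 0.863). Polysomal library 3 of glh1 was far below the other polysomal libraries for this gene.

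The activator pals-16 (WBGene00022337) held 1.27, 1.97 and 2.43 CPM in wt total and 0.678, 2.28 and 1.33 CPM in wt polysomal RNA, which overlapped (-0.42 ± 0.46, adjusted p = 0.499). Levels in glh1 were 1.47, 1.53 and 1.72 CPM in total and 0.866, 0.898 and 0.255 CPM in polysomal RNA. These glh1 groups did not overlap, yet the difference did not pass the test (-1.19 ± 0.48, adjusted p = 0.0641). With the cultures as a block it passed, at -1.26 ± 0.42 and an adjusted p of 0.0360.

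The activator pals-20 (WBGene00194746) held 0.171, 0.136 and 0.466 CPM in wt total, 0.298, 0.134 and 0.0943 CPM in glh1 total, 0.0484, 0.609 and 0.425 CPM in wt polysomal and 0.306, 0.180 and 0.0730 CPM in glh1 polysomal RNA. All groups overlapped, and its values, 2.34 to 24.2 estimated counts, were not whole in any library, as arises where reads are shared between genes. The reporter pals-5 (WBGene00007659) held 1.00, 0.374 and 0.388 CPM in wt total and 0.726, 0.279 and 0.0266 CPM in wt polysomal RNA. The glh1 values were 0.277, 0.483 and 0.660 CPM in total and 0.221, 0.269 and 0.182 CPM in polysomal RNA. Its highest values came from wt culture 1 in both fractions, and its fraction difference did not pass in wt (-0.70 ± 0.70) or glh1 (-1.06 ± 0.75).

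**Figure D2:**
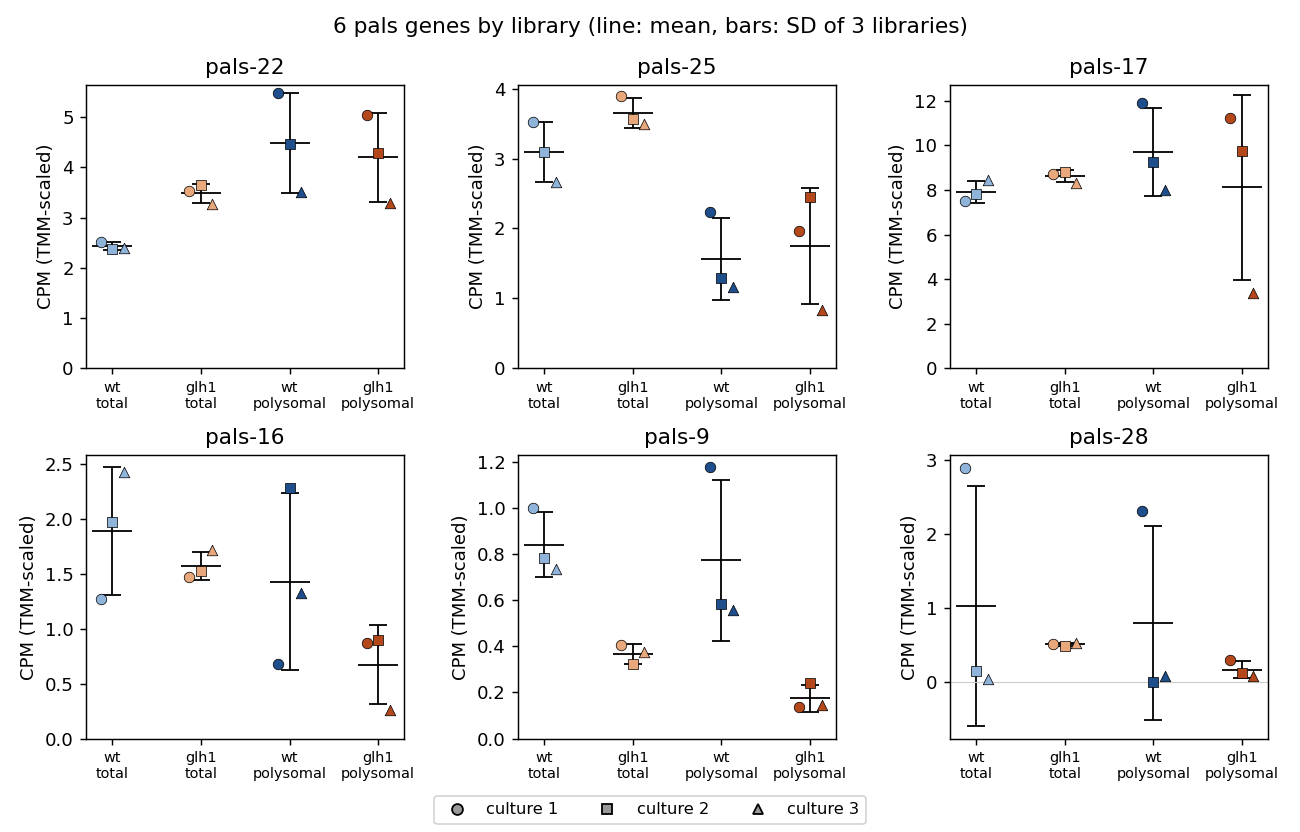
TMM-scaled CPM of 6 pals genes in each of the 12 libraries, by group on the x axis, with the culture as the symbol, the mean as a line and the SD of 3 libraries as bars. In wt, pals-22 is higher and pals-25 lower in polysomal than in total RNA, and pals-28 is high in wt culture 1, at 2.89 CPM in total RNA against 0.136 and 0.0388 CPM in cultures 2 and 3.

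The chromosome III run of pals-22 and pals-25 also holds pals-24 and pals-23, 2 of the 3 members with the highest level per kilobase. For pals-24 (WBGene00016219, III:120435-124690), wt held 8.19, 10.0 and 13.3 CPM in total and 4.60, 4.92 and 3.72 CPM in polysomal RNA. In glh1 the values were 9.91, 8.74 and 9.69 CPM in total and 3.89, 4.43 and 2.74 CPM in polysomal RNA. The fractions did not overlap in either genotype, and pals-24 fell by 1.25 ± 0.25 in wt (adjusted p = 0.00186) and fell by 1.35 ± 0.25 in glh1 (adjusted p = 0.00121). Its neighbour pals-23 (WBGene00016218) held 7.34, 14.3 and 17.2 CPM in wt total and 6.49, 9.39 and 7.97 CPM in wt polysomal RNA, which overlapped (-0.71 ± 0.33, adjusted p = 0.104). The glh1 libraries held 11.5, 11.8 and 12.1 CPM in total and 7.58, 7.57 and 3.61 CPM in polysomal RNA, which did not overlap, and fell by 0.91 ± 0.33 (adjusted p = 0.0415). Without glh1 total library 1, 2 or 3 or polysomal library 3 this call was lost, with adjusted p from 0.0546 to 0.106.

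The largest run was that of 14 genes at I:13083321-13144623, of which 12 were tested. Their median fraction difference was -0.98 in wt, where 5 fell, and -1.34 in glh1, where 7 fell. It holds the reporter gene pals-5. The most abundant members of the run were pals-6 (WBGene00007660, I:13136390-13138544) and pals-14 (WBGene00009061, I:13139122-13141898). For pals-6, wt held 5.06, 8.14 and 7.18 CPM in total and 4.03, 4.77 and 4.12 CPM in polysomal RNA, and glh1 held 5.86, 7.16 and 6.39 CPM in total and 2.17, 3.14 and 2.48 CPM in polysomal RNA. The fractions were apart in both genotypes, and pals-6 fell by 0.66 ± 0.23 in wt (adjusted p = 0.0409) and fell by 1.32 ± 0.24 in glh1 (adjusted p = 0.00120). The wt call was lost without wt total library 2 or 3 or any of wt polysomal libraries 1, 2 and 3, with adjusted p from 0.0523 to 0.140, and also with no filter on low counts (0.0703) or when only the groups compared were fitted (0.0673).

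For pals-14, wt held 6.63, 4.83 and 4.72 CPM in total and 3.24, 2.61 and 1.81 CPM in polysomal RNA, and glh1 held 5.75, 6.22 and 6.72 CPM in total and 1.38, 1.71 and 1.90 CPM in polysomal RNA. Each fraction was apart from the other, and pals-14 fell by 1.07 ± 0.26 in wt (adjusted p = 0.00628) and fell by 1.92 ± 0.27 in glh1 (adjusted p = 0.000275). It was the one member whose difference between the genotypes had an unadjusted p under 0.05 by edgeR's quasi-likelihood test (-0.84 ± 0.37, adjusted p = 1).

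Another 3 weaker members of the run also fell in both genotypes. The gene pals-7 held 0.612, 0.817 and 1.01 CPM in wt total and 0.177, 0.279 and 0.186 CPM in wt polysomal RNA, and 0.234, 0.375 and 0.377 CPM in glh1 total and 0.119, 0.0299 and 0 CPM in glh1 polysomal RNA. It fell by 1.93 ± 0.51 in wt (adjusted p = 0.0103, or 0.0530 without wt total library 3) and fell by 2.35 ± 0.63 in glh1 (adjusted p = 0.0101). Its glh1 polysomal values rested on only 6.66, 1 and 0 estimated counts. The gene pals-15 held 0.978, 1.77 and 1.94 CPM in wt total and 0.565, 0.812 and 0.399 CPM in wt polysomal RNA, and 0.874, 0.751 and 0.849 CPM in glh1 total and 0.272, 0.539 and 0.146 CPM in glh1 polysomal RNA. For both genes the polysomal libraries lay below the total libraries of the same genotype. In wt, pals-15 fell by 1.40 ± 0.42 (adjusted p = 0.0193) and fell by 1.36 ± 0.45 in glh1 (adjusted p = 0.0287). It did not pass without wt total library 2 or 3 or wt polysomal library 3, with adjusted p from 0.0512 to 0.0857, nor without glh1 polysomal library 1 or 3 or any 1 glh1 total library, with adjusted p from 0.0537 to 0.0764.

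The gene pals-12 held 1.44, 0.783 and 1.28 CPM in wt total and 0.290, 0.279 and 0.345 CPM in wt polysomal RNA, and 0.405, 0.831 and 0.189 CPM in glh1 total and 0.170, 0.0598 and 0.182 CPM in glh1 polysomal RNA. It was lower in every polysomal library than in any total library of its genotype, and fell by 1.94 ± 0.50 in wt (adjusted p = 0.00849) and fell by 1.73 ± 0.57 in glh1 (adjusted p = 0.0264). Dropping wt culture 1 from both fractions ended the wt call (adjusted p = 0.0659), and the glh1 call was lost without glh1 total or polysomal library 2 (adjusted p = 0.155 and 0.0817) or with the cultures as a block (adjusted p = 0.0503). Its span, I:13107492-13109778, lies inside that of pals-3 (I:13107492-13114188) on the same strand, so reads of these genes may be split between them.

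In the same run, pals-3 and pals-11 passed in glh1 alone, a difference between genotypes that did not pass (adjusted p = 1 for each). For pals-3, wt held 1.69, 0.579 and 0.291 CPM in total and 0.532, 0.381 and 0 CPM in polysomal RNA, which overlapped (-1.42 ± 0.79, adjusted p = 0.170). In glh1, pals-3 held 0.426, 0.617 and 0.637 CPM in total and 0.0680, 0.0898 and 0.146 CPM in polysomal RNA, and fell by 2.51 ± 0.95 (adjusted p = 0.0477). That call was lost without any 1 of the 6 glh1 libraries, with adjusted p from 0.0694 to 0.129. For pals-11, wt held 0.930, 0.272 and 0.252 CPM in total and 0.420, 0.0761 and 0.159 CPM in polysomal RNA, which overlapped (-1.07 ± 0.68, adjusted p = 0.228). In glh1, pals-11 held 0.128, 0.509 and 0.259 CPM in total and 0.0170, 0.0299 and 0.0365 CPM in polysomal RNA, which were apart, and fell by 3.38 ± 0.99 (adjusted p = 0.0156). Its glh1 polysomal values rested on only 1.34, 1 and 1 estimated counts. Without glh1 polysomal library 1 or total library 2 the adjusted p was 0.0577 and 0.0621. Counts of pals-11 and of pals-7, a member of the same run, were not whole in 9 libraries each and added up to whole numbers there. Reads may thus be split between pals-7 and pals-11, and their calls may not be independent.

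The run of pals-26, pals-27 and pals-28 at III:4375154-4387757 held the most abundant member in CPM. Total RNA of pals-26 (WBGene00007131) stood at 12.1, 10.4 and 12.85 CPM in wt and 13.2, 14.9 and 15.7 CPM in glh1, and polysomal RNA at 5.60, 2.77 and 3.24 CPM in wt and 3.53, 4.4 and 5.91 CPM in glh1. All polysomal values lay below all total values, and pals-26 fell by 1.60 ± 0.28 in wt (adjusted p = 0.000949) and fell by 1.67 ± 0.28 in glh1 (adjusted p = 0.000772). Its neighbour pals-27 held 1.96, 2.01 and 2.47 CPM in wt total and 1.02, 1.60 and 0.611 CPM in wt polysomal RNA, which were apart but did not pass (-0.996 ± 0.39, adjusted p = 0.0579). In glh1, pals-27 held 2.58, 2.22 and 3.21 CPM in total and 0.731, 1.08 and 0.365 CPM in polysomal RNA, and fell by 1.87 ± 0.40 (adjusted p = 0.00310).

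On chromosome V, the run of pals-37, pals-39 and pals-38 at V:12437440-12446995 fell at each gene in both genotypes, with a median difference of -1.204 in wt and -1.585 in glh1. For pals-38 (WBGene00008302), wt held 3.01, 2.18 and 3.61 CPM in total and 1.26, 0.508 and 0.983 CPM in polysomal RNA, and glh1 held 2.79, 3.38 and 3.42 CPM in total and 0.832, 0.808 and 0.511 CPM in polysomal RNA. It fell by 1.67 ± 0.34 in wt (adjusted p = 0.00250) and fell by 2.13 ± 0.35 in glh1 (adjusted p = 0.000706). The long member pals-37 (WBGene00138721) held 5.5, 6.03 and 8.00 CPM in wt total and 4.07, 2.82 and 3.19 CPM in wt polysomal RNA, and 5.65, 5.23 and 4.93 CPM in glh1 total and 1.68, 2.18 and 1.93 CPM in glh1 polysomal RNA. Both genes kept their fractions apart in each genotype, and pals-37 fell by 0.95 ± 0.23 in wt (adjusted p = 0.00649) and fell by 1.45 ± 0.24 in glh1 (adjusted p = 0.000700).

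Between them, pals-39 (WBGene00008301) held 9.17, 4.94 and 10.6 CPM in wt total and 4.65, 3.02 and 3.03 CPM in wt polysomal RNA, and 5.45, 4.96 and 6.20 CPM in glh1 total and 2.23, 2.12 and 1.13 CPM in glh1 polysomal RNA. Its fractions were apart, and it fell by 1.204 ± 0.33 in wt (adjusted p = 0.0115) and fell by 1.59 ± 0.34 in glh1 (adjusted p = 0.00286). The wt call was lost without wt total or polysomal library 3 (adjusted p = 0.0589 and 0.0503).

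Outside the runs, pals-33 (WBGene00021081, V:3673380-3676632) held 5.77, 4.73 and 4.78 CPM in wt total and 2.48, 1.29 and 1.01 CPM in wt polysomal RNA, and 4.05, 6.25 and 4.86 CPM in glh1 total and 0.934, 0.838 and 1.06 CPM in glh1 polysomal RNA. The fractions did not overlap, and pals-33 fell by 1.66 ± 0.32 in wt (adjusted p = 0.00174) and fell by 2.42 ± 0.34 in glh1 (adjusted p = 0.000261). The gene pals-32 (WBGene00016281, V:2896610-2898527) held 7.02, 2.66 and 3.96 CPM in wt total and 3.34, 0.711 and 0.638 CPM in wt polysomal RNA, which overlapped because culture 1 was high in both. Levels in glh1 were 5.20, 6.22 and 6.93 CPM in total and 1.36, 1.38 and 1.39 CPM in polysomal RNA, which were apart. It fell by 1.51 ± 0.54 in wt (adjusted p = 0.0399) and fell by 2.15 ± 0.55 in glh1 (adjusted p = 0.00798). Its wt call was lost without wt total library 1 or 3 or polysomal library 2 or 3, with adjusted p from 0.0645 to 0.163, and when only the groups compared were fitted (0.118).

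The gene pals-18 (WBGene00022353), in the run of pals-16 and pals-17, held 7.90, 3.13 and 4.10 CPM in wt total and 3.21, 1.90 and 1.65 CPM in wt polysomal RNA, which overlapped. The glh1 values were 6.14, 7.4 and 6.32 CPM in total and 2.48, 3.14 and 1.17 CPM in polysomal RNA, which were apart. It fell by 1.15 ± 0.41 in wt (adjusted p = 0.0383) and fell by 1.54 ± 0.41 in glh1 (adjusted p = 0.00970). Its wt call was lost without wt total library 1 or 3 or polysomal library 2 or 3, with adjusted p from 0.0539 to 0.195, and without both of the wt culture 1 libraries (0.0758). Its annotated span overlaps that of pals-19, which did not pass in either genotype (-0.43 ± 0.41 in wt and -0.80 ± 0.41 in glh1).

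Members that stayed close to 0 in both genotypes were pals-17, pals-1 (0.17 ± 0.57 in wt and 0.12 ± 0.58 in glh1) and pals-31 (-0.15 ± 0.42 and -0.10 ± 0.42). Their errors allow for sizeable differences, so this does not show that their polysomal and total levels were alike. Of the 14 members that fell in wt, all 14 also fell in glh1, where they made up 77.8% of the 18, while 2591 of all tested genes fell in both genotypes, 79.2% of those in wt and 81.9% of those in glh1. In wt, 8 of the 15 calls held whichever library was left out (pals-12, pals-14, pals-22, pals-24, pals-26, pals-33, pals-37 and pals-38), and the count dropped to 8 without wt total library 3 and 9 without wt polysomal library 3. In glh1, 12 of the 18 calls held (pals-6, pals-7, pals-14, pals-18, pals-24, pals-26, pals-27, pals-32, pals-33, pals-37, pals-38 and pals-39). Germline markers were lower in polysomal RNA too: all 10 had a fold change below 0 in each genotype. Of them 6 fell in wt and 5 in glh1, where 19.8% and 19.1% of all tested genes fell. Their medians were -0.95 and -0.73. They summed to 1136 to 1699 CPM in wt total and 740 to 935 CPM in wt polysomal RNA, and to 1148 to 1201 CPM in glh1 total and 654 to 886 CPM in glh1 polysomal RNA. Among all tested genes 20.1% rose in wt and 23.6% in glh1. Of 9 intestinal markers, 8 had a fold change above 0 in wt, where 2 rose and 0 fell, and 7 in glh1, where 4 rose and 0 fell. They summed to 4123 to 8415 CPM in wt total and 4857 to 18867 CPM in wt polysomal RNA, and to 5731 to 6191 CPM in glh1 total and 7364 to 17108 CPM in glh1 polysomal RNA, sums in which asp-1 and cpr-1 had the largest share in total RNA. The 6 vitellogenin genes, yolk genes of the adult intestine, went the other way. All 6 had a fold change below 0 in each genotype, 2 fell and 0 rose in each, and their medians were -0.57 in wt and -0.89 in glh1. Of 10 oocyte markers, 9 were below 0 in wt and 8 in glh1, while 8 of 10 sperm markers were above 0 in each. Of 10 epidermal markers 6 were above 0 in each genotype, and of 5 tested embryo markers 4 in wt and 5 in glh1. The part of tissue makeup in the pals differences was not tested.

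Longer members tended to have a lower fold change of polysomal against total RNA. Across the 34 members, Spearman's rho of the longest coding length with the log2 fold change was -0.47 in wt and -0.61 in glh1, and across 15761 tested genes with a coding length it was -0.47 and -0.43. The points share libraries, members are related in sequence, and no test was made. Over all 38 members, coding lengths ran from 219 to 2202 bp with a median of 1006.5 bp, and the median over all tested genes was 1047 bp. The shortest, pals-10, was not tested, and the tested members ran from 498 bp (pals-34) to 2202 bp. Within that range, pals-22 at 852 bp and pals-25 at 915 bp had similar lengths and opposite signs in wt.

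**Figure D3:**
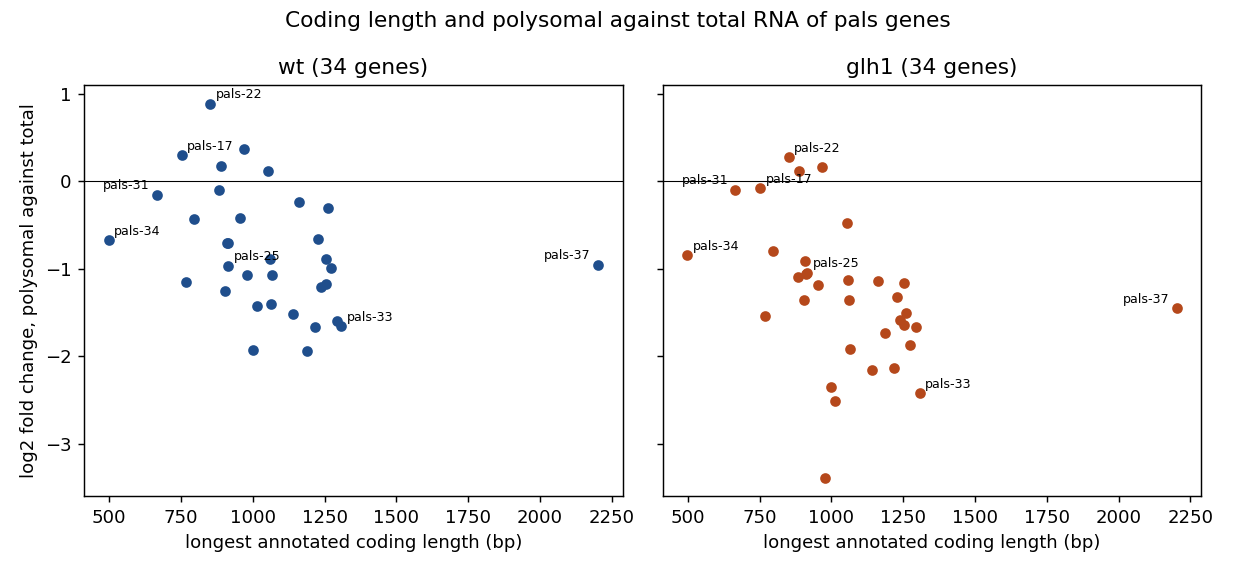
Log2 fold change of polysomal against total RNA (y axis) against the longest annotated coding length in bp (x axis) for the 34 tested pals genes, wt at left and glh1 at right, each point a gene. The longest member, pals-37 at 2202 bp, lies at -0.95 in wt and -1.45 in glh1, and pals-22 and pals-25 are near each other in length but not in fold change.

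Few pals genes passed the test between the genotypes. In total RNA, 0 of the 34 tested members passed in either direction, where 0.514% of all tested genes were higher and 0.43% lower in glh1. An unadjusted p under 0.05 in edgeR's quasi-likelihood test was reached by 6 of the 34 members and by 2945 of the 16526 tested genes. The fold changes ran from -1.32 to 0.52 with a median of -0.15, and the median over all tested genes was -0.07. The 3 glh1 libraries lay above the 3 wt libraries for 2 members (16.6% of all tested genes) and below them for 4 (17.1%). The 2 members higher in this sense were pals-22 (0.52 ± 0.24, adjusted p = 0.280) and pals-26 (0.31 ± 0.27, adjusted p = 0.585). The 4 lower ones were pals-7 (-1.31 ± 0.49, adjusted p = 0.204), pals-8 (-0.98 ± 0.43, adjusted p = 0.256), pals-9 (-1.18 ± 0.38, adjusted p = 0.152) and pals-15 (-0.92 ± 0.41, adjusted p = 0.270), all in the chromosome I run.

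In polysomal RNA, 1 member was lower in glh1 and 0 higher, where 0.514% of all tested genes were lower and 0.545% higher. That member was pals-9 (WBGene00044237, I:13133648-13136156), a gene of the chromosome I run. It held 1.18, 0.584 and 0.558 CPM in wt polysomal RNA and 0.136, 0.239 and 0.146 CPM in glh1 polysomal RNA. The groups did not overlap, wt culture 1 was the highest, and pals-9 fell by 2.18 ± 0.42 (adjusted p = 0.0295). The glh1 polysomal libraries held only 8, 8 and 4 counts of pals-9. In total RNA it held 1.00, 0.783 and 0.738 CPM in wt and 0.405, 0.322 and 0.377 CPM in glh1, again apart. The polysomal call was lost without glh1 library 1 (adjusted p = 0.110) or wt library 2 or 3 (0.0537 and 0.0577), and when only the groups compared were fitted (0.350).

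Over the 34 tested members in polysomal RNA, pals-9 included, 30 fold changes were below 0, with a median of -0.63 where that of all tested genes was -0.01. Of these members 9 had an unadjusted p under 0.05 in edgeR's quasi-likelihood test, as had 2590 of the 16526 tested genes. The glh1 libraries lay below all wt libraries for 8 members (23.5%; 8.08% of all tested genes) and above them for 0 (9.48%). This median rested in part on wt culture 1: without both of its libraries it was -0.26, with 20 of the 34 below 0. In total RNA the median without that culture turned from -0.15 to 0.27. Then pals-32 was higher in glh1 total RNA (0.98 ± 0.25, adjusted p = 0.0372), pals-4 was higher (1.75 ± 0.47, adjusted p = 0.0481) and pals-6 lower (-0.85 ± 0.22, adjusted p = 0.0399) in glh1 polysomal RNA.

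The difference of the polysomal to total ratio between glh1 and wt passed for 0 members and for 0 of all tested genes in edgeR's quasi-likelihood test (0%), with an unadjusted p under 0.05 for 1 member and 491 genes. DESeq2 also called 0 members. The members' median was -0.40, where that of all tested genes was 0.07, and 30 of the 34 were below 0. It stayed below 0 in every setting run but leaned on single libraries. Without wt polysomal library 1 it was -0.25 with 21 of the 34 below 0, and without glh1 polysomal library 3 it was -0.29 with 24 below 0. The larger number of falls in glh1 than in wt is therefore not a tested difference. The fraction and genotype comparisons share libraries, so their values are not independent of each other.

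Culture 1 of wt carried high levels of a subset of the family in both fractions. It was the highest of the 6 total RNA libraries for 16 of the 34 members (47.1%; 18.2% of all tested genes) and the highest of the 6 polysomal libraries for 21 (61.8%; 17.5%). It was at least 2 times the next library for pals-3, pals-28 and pals-29 in total RNA, and for 9 members in polysomal RNA, where 0.950% and 0.787% of all tested genes were. The gene pals-28 (WBGene00007134, III:4384787-4387757) held 2.89, 0.136 and 0.0388 CPM in wt total and 2.31, 0 and 0.0797 CPM in wt polysomal RNA. In glh1 the values were 0.511, 0.483 and 0.519 CPM in total and 0.289, 0.120 and 0.0730 CPM in polysomal RNA. The glh1 total libraries thus lay between wt culture 1 and the other wt cultures, and 0 counts in a library of this depth allow up to 0.0761 CPM.

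The gene pals-29 held 2.54, 0.749 and 0.699 CPM in wt total and 1.77, 0.0254 and 0.266 CPM in wt polysomal RNA, while pals-4 held 1.59, 0.374 and 0.466 CPM and 2.16, 0.254 and 0.133 CPM. In both, culture 1 was the highest of the wt libraries. Other members went the other way in that culture: in total RNA, the log2 CPM of culture 1 minus the mean of cultures 2 and 3 was -1.09 for pals-23 and -0.76 for pals-16. The vitellogenin gene vit-3, a yolk gene of the adult intestine, stood at 0.685 CPM in total RNA of wt culture 1 and at 111 and 93.7 CPM in cultures 2 and 3. All 6 vitellogenin genes were lower in that library than in the other wt total libraries, but by unlike amounts. There vit-2 stood at 11379 CPM against 15503 and 13416 CPM, vit-5 at 1395.5 against 2883 and 2448 CPM, and vit-6 at 2265 against 8537 and 7525 CPM. Summed intestinal markers stood at 4123 CPM there and at 8415 and 6531 CPM in cultures 2 and 3. The largest shares of that sum were those of asp-1 and cpr-1, and the markers did not all go that way. For spp-1 the values were 288 CPM in culture 1 and 217 and 174 CPM in cultures 2 and 3. The part of the yolk or intestinal levels in the pals levels was not tested.

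**Figure D4:**
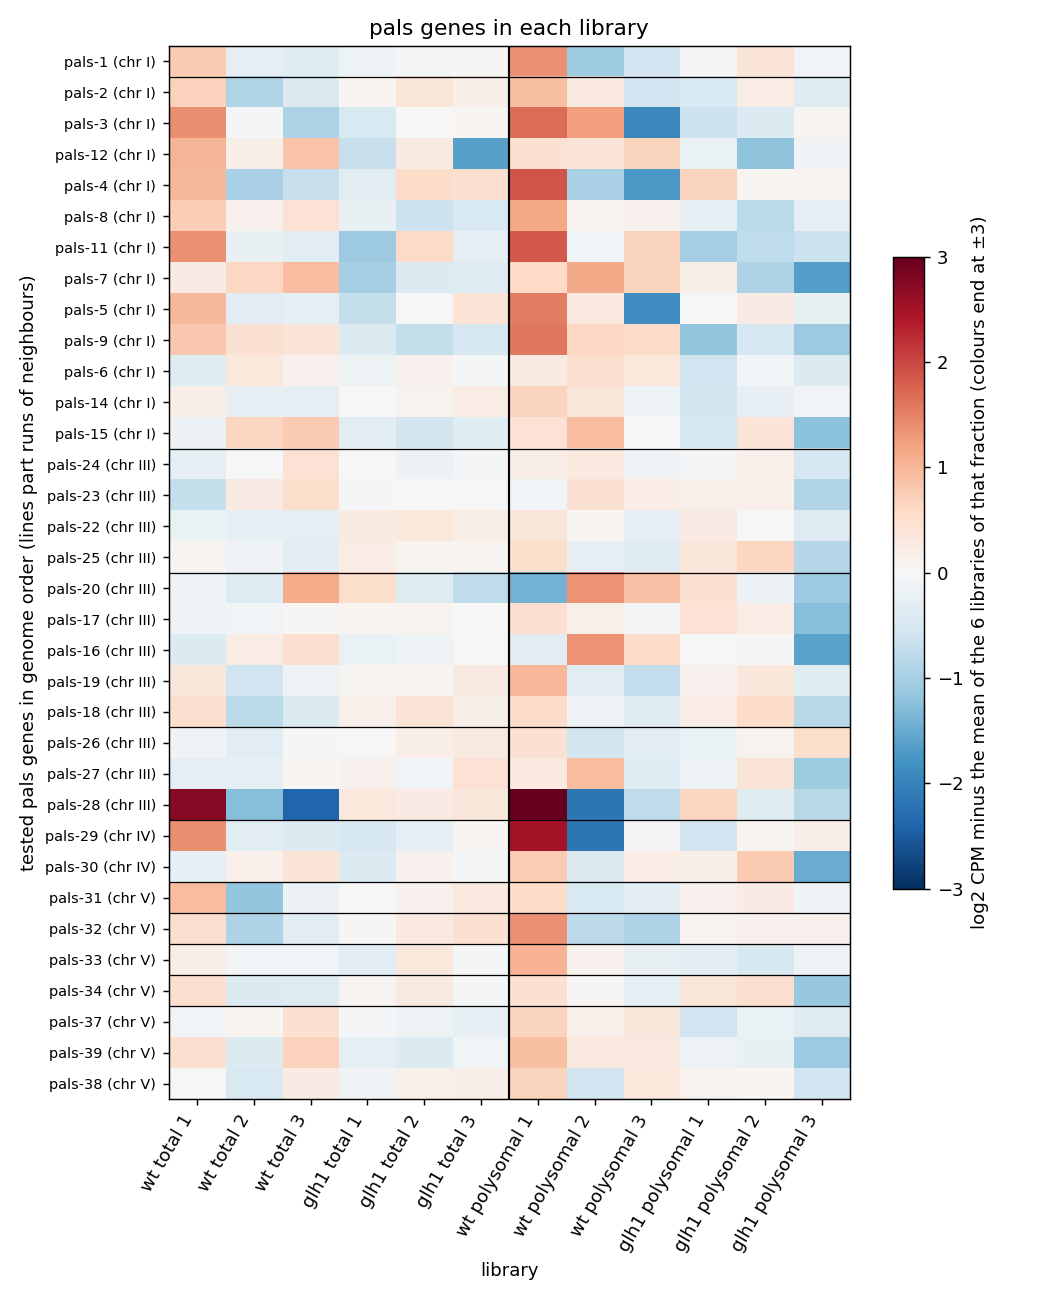
Log2 CPM of the 34 tested pals genes (rows, in genome order, with lines between runs) in the 12 libraries (columns), each minus the mean of the 6 libraries of its fraction; red is higher, blue lower, and colours end at 3 in either direction. The wt culture 1 columns are red at pals-28, pals-29 and pals-4 in both fractions, with pals-28 at 2.89 and 2.31 CPM there.

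Genes that act with the pals family were read from lists of known members. Over all tested genes, 19.8% fell and 20.1% rose in polysomal against total RNA in wt, and 19.1% fell and 23.6% rose in glh1. In the ubiquitin ligase that is part of the intracellular pathogen response, all 7 listed genes were tested, and in the wt polysomes 3 rose and 1 fell relative to total RNA. The Skp1-related adaptors skr-4 (1.31 ± 0.23, adjusted p = 0.000943), skr-3 (1.201 ± 0.27, adjusted p = 0.00376) and skr-5 (0.66 ± 0.23, adjusted p = 0.0396) rose, and the cullin cul-6 fell by 1.15 ± 0.31 (adjusted p = 0.0107). In glh1, skr-4 and skr-5 rose (0.65 ± 0.23 and 0.71 ± 0.24) and cul-6 fell by 1.62 ± 0.32 (adjusted p = 0.00183).

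Of 25 other genes of the response, 15 were tested. In wt, 1 rose, K02E11.10 (2.11 ± 0.63, adjusted p = 0.0185), and 2 fell, M01G12.9 (-1.82 ± 0.51, adjusted p = 0.0134) and fbxa-182 (-0.88 ± 0.32, adjusted p = 0.0447), below the shares of 19.8% and 20.1% over all tested genes. In glh1, 1 rose and 5 fell, where 23.6% and 19.1% of all tested genes did. There K02E11.10 rose (2.58 ± 0.64, adjusted p = 0.00659), and Y6E2A.5 (-2.94 ± 0.47, adjusted p = 0.000611), M01G12.9 (-2.34 ± 0.52, adjusted p = 0.00357) and fbxa-182 (-1.17 ± 0.33, adjusted p = 0.0133) fell.

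Of 10 regulators of the response, 6 fell and 1 rose in wt (19.8% and 20.1% over all tested genes), and 5 fell and 1 rose in glh1 (19.1% and 23.6%). The RIG-I-like receptor gene drh-1, which senses viral replication products, fell by 1.97 ± 0.22 in wt (adjusted p = 5.29e-05) and fell by 2.02 ± 0.22 in glh1 (adjusted p = 8.34e-05). The purine nucleoside phosphorylase gene pnp-1, a repressor of the response, rose in both (1.44 ± 0.19 and 1.52 ± 0.19), and lin-35, the Rb homologue, fell by 2.71 ± 0.36 and fell by 2.75 ± 0.36. The zinc finger gene lin-13 fell by 1.43 ± 0.21 in wt (adjusted p = 0.000332), and the histone methyltransferase gene met-2 fell by 1.06 ± 0.18 in glh1 (adjusted p = 0.000861).

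Another list held 9 tested genes, of antiviral RNA interference or, as nck-1, sid-3 and viro-2, of host factors for Orsay virus infection. Of these, 6 fell and 1 rose in wt (19.8% and 20.1% over all tested genes), and 6 fell and 2 rose in glh1 (19.1% and 23.6%). The genes that rose were nck-1 in wt and nck-1 and sid-3 in glh1. The RNA-dependent RNA polymerase gene rrf-1 fell by 2.20 ± 0.23 in wt (adjusted p = 4.30e-05) and fell by 2.11 ± 0.23 in glh1 (adjusted p = 8.81e-05). The Argonaute gene rde-1 fell by 1.83 ± 0.22 in wt and fell by 1.71 ± 0.22 in glh1. In wt, rsd-2 and the Dicer gene dcr-1 fell by 1.16 ± 0.17 and fell by 1.16 ± 0.18, and in glh1 nck-1 rose (1.00 ± 0.16) and the helicase gene drh-3 fell by 1.06 ± 0.19.

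The chil genes encode chitinase-like proteins, some of them induced by oomycete recognition. Of the 20 tested chil genes, 2 fell and 1 rose in wt and 4 fell and 1 rose in glh1. These shares were at or below those over all tested genes but for the falls in glh1, where all tested genes gave 19.1%. In wt, chil-13 fell by 1.43 ± 0.31 (adjusted p = 0.00317), chil-24 rose by 0.81 ± 0.21 (adjusted p = 0.00815) and chil-7 fell by 1.40 ± 0.47 (adjusted p = 0.0315). In glh1, chil-13 fell by 1.73 ± 0.31, chil-11 fell by 1.38 ± 0.34, chil-8 fell by 1.27 ± 0.34 and chil-24 rose by 0.97 ± 0.21. In all of these lists, 0 genes passed between the genotypes or in the difference between ratios.

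The total RNA of wt culture 1 held the highest of the 6 values for 9 of the 15 other response genes, 10 of the 20 chil genes and 2 of the 7 ligase genes, where it did so for 18.2% of all tested genes. In polysomal RNA, culture 1 was highest for 10 of the 15, 5 of the 20 and 3 of the 7, against 17.5% of all tested genes. Library 2 of glh1 polysomal RNA was highest for 7 chil genes, and wt total library 3 for 3 ligase genes, more than culture 1 in each.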

How the data were processed

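Poly(A)-selected RNA from 12 libraries was sequenced for 75 cycles with a stranded kit, per the labels. The deposited values are estimated counts per gene, of which 3.79 to 4.80% per library were not whole numbers to within 1e-06, and the authors also deposited rlog values, on a log2 scale, for 12709 genes (18 pals genes). DESeq2 1.24.0, R 3.6.1, RSEM 1.3.0, STAR 2.6.1b and Trimmomatic 0.36 appear, with WBcel235, in the submitters' processing notes; neither the counting tool nor its strand setting is stated in the sources used. Reads of near-identical or overlapping genes may be split between them: 8 of the 38 pals genes had counts that were not whole.

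The rounded counts went into edgeR 4.0.16 under R 4.3.3 (filterByExpr, TMM, quasi-likelihood with robust dispersions) with 1 model of 4 groups and 5 contrasts. P-values were adjusted by Benjamini-Hochberg over all 16526 genes, and genes under 0.05 were called. SE is the absolute log2 fold change over the root of F. Other settings used DESeq2 1.42.0 and limma 3.58.1 on rlog values. Positions and lengths came from Ensembl release 115. The script was tested on simulated counts. P-values of the main fit rest on a spread within groups of 3 libraries, pooled over the 4 groups. That fit had no term for the culture, so the total and polysomal libraries of a lysate counted as independent.

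Values are given for members called in any contrast, known regulators, pals-5 and the 3 members of highest CPM per kb; pals-28, pals-29 and pals-4 and other members named outside these were chosen after their values were seen. In the other lists up to 4 called genes a contrast were named by adjusted p. The members and lists were chosen with earlier results of these data known.

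Total and polysomal libraries of a number come from the same lysate, per the labels. Deviations of such pairs from their group means correlated at 0.76, 0.44 and 0.30 in wt and 0.10, -0.16 and -0.21 in glh1. No sequences were used.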

Additional observations from a re-analysis of the deposited data

How the results depend on the processing

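No pals call reversed under any setting tried. In glh1 against wt total RNA, 1 member passed without both libraries of wt culture 1 and 0 in every other setting; leaving out single libraries gave 0 to 0. In polysomal RNA the count of 1 became 0 with a filter at 5 CPM, which did not test pals-9, 0 when only the groups compared were fitted, 2 with DESeq2 (pals-37 added, -0.81, adjusted p = 0.0260), 3 without both libraries of wt culture 1 and 0 on rlog values with limma, which do not hold pals-9; single libraries left out gave 0 to 1. For polysomal against total RNA, the filter at 5 CPM, which tested 12 members, gave 9 calls in wt and 10 in glh1, and single libraries left out gave 8 to 18 and 12 to 17. With the cultures as a replicate block, 16 members passed in wt (pals-3 added, -1.59, adjusted p = 0.0392) and 22 in glh1 (pals-2, pals-16, pals-19, pals-29 and pals-34 added, pals-12 lost); the block changed no other call of a member. Restricting to members with whole counts, a setting chosen after seeing the data, left 27 tested members and gave 11 and 12 calls. The difference of ratios gave 0 calls in each setting run. Single-library counts leave an arm of 2 libraries and lower power; the cause of other losses was not tested. At this depth members under about 1 CPM rest on few reads.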

Other observations

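Outside the pals family, wt culture 1 held some genes of the other lists high in both fractions, values picked after they were seen. The F-box gene fbxa-75 stood at 3.13, 0.0681 and 0.0971 CPM in wt total RNA and 0.256, 0.456 and 0.472 CPM in glh1 total RNA. In wt polysomal RNA it stood at 1.89, 0.127 and 0 CPM. The chitinase-like gene chil-18 stood at 2.50, 0.102 and 0.0971 CPM in wt and 1.00, 1.21 and 1.04 CPM in glh1 total RNA, and at 2.34, 0.102 and 0.0532 CPM in wt polysomal RNA. Other response genes were lower in wt culture 1. In wt total RNA, arrd-8 stood at 0.489, 1.84 and 3.30 CPM, K02E11.10 at 1.64, 5.82 and 4.52 CPM and math-38 at 52.9, 74.3 and 61.9 CPM. Of the vitellogenin genes, vit-3 stood at 0.685, 111 and 93.7 CPM in wt total RNA and 1.13, 0.509 and 1.11 CPM in glh1 total RNA. For vit-4 the values were 0.367, 44.7 and 42.7 CPM in wt total RNA and 1.07, 0.724 and 0.825 CPM in glh1 total RNA. In both genes wt culture 1 was far below the other wt cultures. The more abundant vit-2 stood at 11379, 15503 and 13416 CPM in wt and 13618, 12703 and 14127 CPM in glh1 total RNA. No test was made, and no cause was tested.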
